A study of Mus musculus with 8 samples.

Results

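The 10 genes described here encode the core machinery that passes a Wnt signal from the cell surface to β-catenin: the co-receptors Lrp5 and Lrp6, the Dishevelled proteins Dvl1, Dvl2 and Dvl3, the scaffolds Apc and Axin1, and the kinases Gsk3a, Gsk3b and Csnk1a1. They were chosen by symbol for their known roles, with earlier results of these data known. All 10 were found, with a single row each, among the 28792 gene symbols of both deposited tables. The tables hold 4 RNA sequencing libraries of stem cells sorted from the hair follicles of mouse back skin, where they reside in the bulge and regenerate the hair. In the first pair of libraries, here the Ctnnb1 pair, female mice of day 99 and strain C57BL6/129Sv carried K15CrePGR, a Cre recombinase fused to a hormone receptor domain and driven by a Krt15 promoter, and a Rosa-YFP reporter with a floxed stop; the Het library had Ctnnb1+/fl, 1 floxed copy of the β-catenin gene, and the cKO library had Ctnnb1fl/fl; the submitters place these mice in telogen, the resting phase, in 1 text and at the onset of anagen, the growth phase, in another. In the second, the LacZ pair, both libraries came from male C57BL6 mice of day 24 that were Axin2LacZ/+, at the passage from rest to growth, and bulge cells were separated by reporter activity, as LacZ-positive or LacZ-negative. All mice of the LacZ pair thus carried a reporter in 1 copy of Axin2, and the Het library of the Ctnnb1 pair is itself a carrier of a floxed allele. Each group is 1 library, the number of mice behind it is not stated in the labels, and no difference below has a replicate check or a test.

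In cells without a Wnt signal, Axin and Apc hold β-catenin in a complex in which casein kinase 1 and glycogen synthase kinase 3 phosphorylate it, which marks it for ubiquitination and destruction. When a Wnt ligand joins a Frizzled receptor to Lrp5 or Lrp6, Dishevelled is recruited, Axin is drawn to the membrane, and β-catenin escapes destruction and reaches TCF/LEF factors in the nucleus. Much of this control acts on proteins and their phosphorylation, which RNA levels do not show. In the bulge, Wnt signalling is known for its part in the start of hair growth.

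Values are FPKM, fragments scaled to transcript length and library size, so levels can be set side by side between genes of a library. A difference is a log2 ratio, cKO to Het or LacZ-positive to LacZ-negative, after 1 was added to each FPKM, and a 2-fold line is drawn at 1 and -1. Genes that reach 1 FPKM in a library of the pair are called measured, and those that reach 5 FPKM in both of its libraries well expressed. The pairs were scaled in separate tables, so levels across pairs are given as values only. Stem cell markers were high: the 10 bulge markers summed to between 11568 and 17422 FPKM, all at 1 FPKM or more except Krt15 in the LacZ-negative library. There Krt15 is listed at 0, against 5951 FPKM in LacZ-positive cells, 7528 in the cKO and 6208 in the Het library. Whether that 0 is a true absence or a missing value cannot be told. It counts as 0 in the lowest sum, which is thus not directly comparable with the rest. Keratins make up most of these sums. Cd34 stood at 223 FPKM in LacZ-positive against 516 in LacZ-negative cells, Lhx2 at 145 against 242 and Sox9 at 83.2 against 119.5. Tcf7l1 (11.2 against 13.7) and Krt5 (5693 against 8690) were also lower there. Higher in LacZ-positive cells were Itga6 (185 against 178), Nfatc1 (58.2 against 54.7), Lgr5 (43.9 against 41.3) and Krt14 (2144 against 1714). In the Ctnnb1 pair, Lgr5 (108 against 183) and Nfatc1 (42.8 against 62.0) were lower in the cKO library. The other bulge markers were higher there, Sox9 narrowly (74.9 against 73.3). The 5 leukocyte markers summed to 3.46 to 8.37 FPKM, mostly from Cd68 (1.02 to 5.20) and Cd74 (1.30 to 3.26), with Ptprc at 0.0696 or less. The 5 fibroblast markers summed to 8.74 to 23.0 FPKM, and the 4 endothelial markers to 0.521 or less. The 5 melanocyte markers summed to 2.11 and 3.25 FPKM in the Ctnnb1 pair and to 19.6 and 14.8 in the LacZ pair. The 4 epidermal differentiation markers summed to 637 FPKM in the cKO and 607 in the Het library, and to 1975 in LacZ-positive against 827 in LacZ-negative cells. The 5 markers of dividing cells summed to 4.60 and 34.8 FPKM in the cKO and Het libraries and to 118 and 17.4 in the LacZ-positive and LacZ-negative libraries. In sorted bulk samples, a difference in the make-up of the cells and a difference in RNA per cell cannot be told apart, and the part of these shifts in the values below was not tested. Ctnnb1, the floxed gene, stood at 370 FPKM in the cKO and 251 in the Het library, opposite to a loss, so that library is meant by its label wherever cKO is written; a gene-level value does not resolve the deleted part.

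All 10 genes were expressed in all 4 libraries. Csnk1a1 stood highest in each, at 138 to 205 FPKM, above 95.3% to 96.7% of the genes that reach 1 FPKM in that library. Dvl3 stood lowest in each, at 6.15 to 8.75 FPKM, yet still above 27.4% to 38.7% of those genes. The highest member exceeded the lowest by a ratio of 16.7 in the cKO, 18.6 in the Het, 23.0 in the LacZ-positive and 33.3 in the LacZ-negative library. The order was the same in both libraries of the Ctnnb1 pair for all 10 members: Csnk1a1, Dvl1, Axin1, Gsk3a, Lrp6, Dvl2, Lrp5, Gsk3b, Apc and Dvl3. In the LacZ pair 8 of 10 kept their place between the libraries, and Axin1 and Dvl1 exchanged theirs, Axin1 standing above Dvl1 and Gsk3a in LacZ-negative cells and below both in LacZ-positive cells. With 1 library a group there is no spread to say which neighbours in these orders differ.

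**Figure D1:**
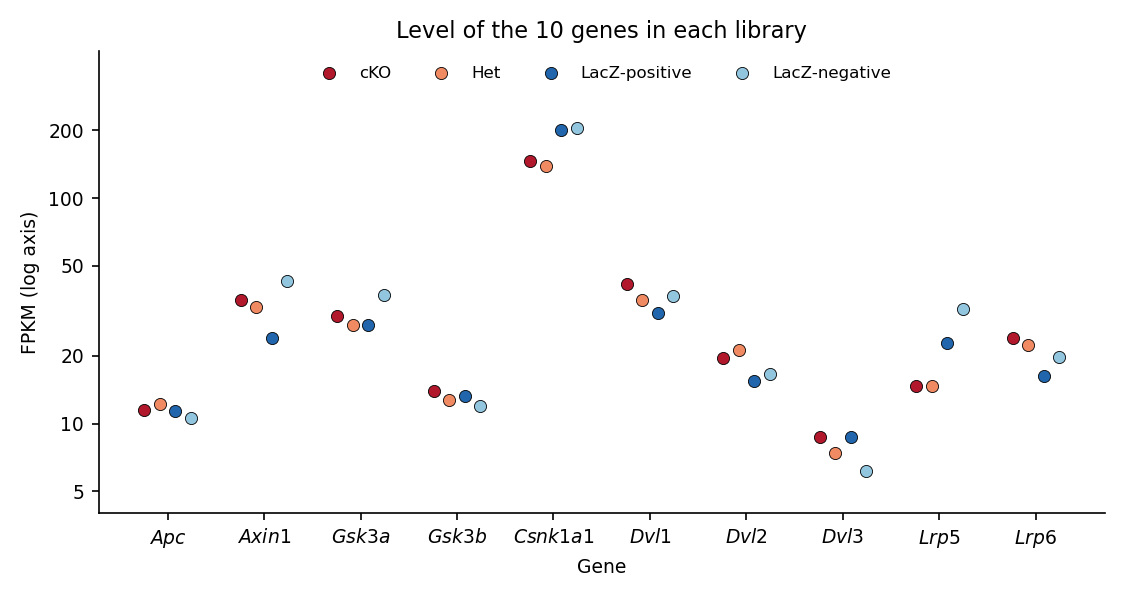
FPKM of each of the 10 genes (log axis) in the 4 libraries, 1 point a library. Csnk1a1 stands above all others at 138 to 205 FPKM and Dvl3 lowest at 6.15 to 8.75. The values run from 14.7 to 32.1 for Lrp5, 23.95 to 43.0 for Axin1, 10.6 to 12.3 for Apc and 11.9 to 14.0 for Gsk3b. Lrp5 stands at 14.7 in both libraries of the Ctnnb1 pair. The pairs were scaled separately, so ranges across them are given as values only.

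No member reached the 2-fold line in either pair. In the Ctnnb1 pair, where 4.09% of 13014 measured genes did, 0 of 10 members did so, and their differences ran from -0.12 (Dvl2) to 0.22 (Dvl1). Of the 10, 7 were on the higher side of 0 in the cKO library, as were 64.7% of the 9396 well-expressed genes. The members' median was 0.09, beside 0.06 for all measured genes and 0.07 for the well-expressed ones. In the LacZ pair, where 7.27% of 13283 measured genes reached the line, again 0 of 10 members did, but their differences were more spread, from -0.82 (Axin1) to 0.45 (Dvl3). Here 7 of 10 lay below 0, beside a median of all genes that was itself below 0: the members' median was -0.17, that of all 13283 genes -0.13, and that of the 9252 well-expressed genes -0.17. Relative to this last median 5 members lay above and 5 below. All 10 members lay inside the range that holds the central 95% of well-expressed genes, which was -0.50 to 0.61 in the Ctnnb1 pair and -0.91 to 0.85 in the LacZ pair.

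**Figure D2:**
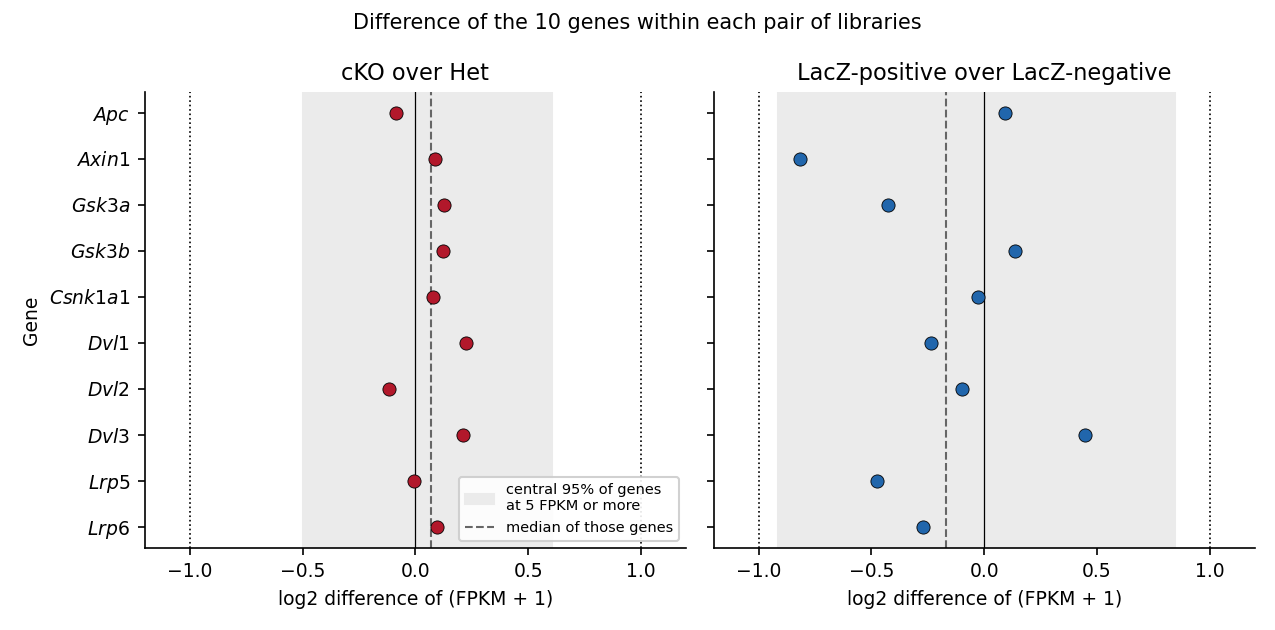
log2 difference of (FPKM + 1) for the 10 genes, cKO over Het at left and LacZ-positive over LacZ-negative at right, 1 point a gene; the grey band holds the central 95% of well-expressed genes, the dashed line is their median and the dotted lines mark 2-fold. The points gather between -0.12 and 0.22 at left and spread from -0.82 (Axin1) to 0.45 (Dvl3) at right.

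Lrp5 and Lrp6, the co-receptors whose cytoplasmic tails are phosphorylated when Wnt binds and then hold Axin, were nearly level in the Ctnnb1 pair. Lrp5 (ENSMUSG00000024913, mm9 chromosome 19, 3584824 to 3686564) stood at 14.7 FPKM in the cKO and 14.7 in the Het library, a log2 difference of -0.0060. Lrp6 (ENSMUSG00000030201, mm9 chromosome 6, 134396493 to 134516983) stood at 24.02 and 22.4 FPKM, a difference of 0.10. Both co-receptors were on the lower side in LacZ-positive cells. There Lrp5 stood at 22.9 FPKM against 32.1 in LacZ-negative cells, a ratio of 0.712 and a log2 difference of -0.47 (-0.30 after centring on the median of well-expressed genes). Lrp6 stood at 16.2 against 19.7 FPKM, a difference of -0.27, or -0.10 after centring. Summed, the co-receptors came to 39.0 FPKM in LacZ-positive against 51.9 in LacZ-negative cells.

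A ratio between genes of 1 library does not depend on how the library was scaled. Lrp6 made up 62.1% of the summed Lrp5 and Lrp6 level in the cKO and 60.3% in the Het library, but 41.5% in LacZ-positive cells against 38.1% in LacZ-negative ones. Lrp6 was thus the more abundant co-receptor transcript in both libraries of the day 99 females, and Lrp5 in both libraries of the day 24 males. Age, sex, strain, allele, sort and table differ together between the pairs and cannot be told apart.

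The Dishevelled genes encode the cytoplasmic proteins that polymerise at the activated receptor. Dvl1 (ENSMUSG00000029071, mm9 chromosome 4, 155221510 to 155237471) stood at 41.5 FPKM in the cKO and 35.4 in the Het library, a log2 difference of 0.22. Dvl2 (ENSMUSG00000020888, mm9 chromosome 11, 69814096 to 69828913) stood at 19.4 and 21.2 FPKM, a difference of -0.12. Dvl3 (ENSMUSG00000003233, mm9 chromosome 16, 20511205 to 20532593) stood at 8.75 and 7.43 FPKM, a difference of 0.21. Dvl1 and Dvl3 had the highest differences of the 10 genes in that pair and, before centring, the largest in size. Their order turned with the setting. Dvl3 lay above Dvl1 with a pseudocount of 0.1 (0.233 against 0.229). It also did so relative to the median of genes whose interval has a like length (0.156 against 0.152, the span class). The same held relative to genes of like level (0.18 against 0.14, the level class). Dvl2 was at -0.19 after centring, -0.19 by span class and -0.18 by level class. In size this was beyond Dvl1 in each (0.16, 0.15 and 0.14). Of the well-expressed genes of that pair, 19.4% had a higher difference than Dvl1.

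The LacZ pair parted the 3 genes. Dvl3 stood at 8.75 FPKM in LacZ-positive against 6.15 in LacZ-negative cells, a ratio of 1.42 and a log2 difference of 0.45, the highest among the 10 genes, and 0.62 after centring; 6.41% of well-expressed genes lay higher. Dvl1 stood at 30.9 and 36.6 FPKM, a difference of -0.24 that became -0.067 after centring and 0.0071 relative to genes of like level. Dvl2 stood at 15.4 and 16.6 FPKM, a difference of -0.099 that turned to 0.071 after centring, so no direction is given for it. Dvl1 made up most of the family in every library, between 55.3% and 61.7% of the summed Dvl level. The share of Dvl3 was 12.6% in the cKO, 11.6% in the Het, 15.9% in the LacZ-positive and 10.4% in the LacZ-negative library. Dvl2 made up 27.9% in the cKO, 33.1% in the Het, 28.0% in the LacZ-positive and 27.9% in the LacZ-negative library. The ratio of Dvl1 to Dvl3 was 4.74 and 4.77 in the cKO and Het libraries but 3.54 and 5.96 in the LacZ-positive and LacZ-negative libraries.

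The 250 bases before the start site of Dvl1 and Dvl3, whose ratio was 3.54 in LacZ-positive against 5.96 in LacZ-negative cells, are shown from RefSeq (GRCm38.p6, plus strand, chr4:155847152-155847401 and chr16:20516736-20516985), with GC boxes, the GGGCGG element that binds Sp1-type factors, in capitals on either strand. Of the 10 genes, 5 were matched in the promoter table used here (Dvl1, Dvl2, Dvl3, Gsk3a and Gsk3b); the promoters of the others were not analysed here.
Dvl1: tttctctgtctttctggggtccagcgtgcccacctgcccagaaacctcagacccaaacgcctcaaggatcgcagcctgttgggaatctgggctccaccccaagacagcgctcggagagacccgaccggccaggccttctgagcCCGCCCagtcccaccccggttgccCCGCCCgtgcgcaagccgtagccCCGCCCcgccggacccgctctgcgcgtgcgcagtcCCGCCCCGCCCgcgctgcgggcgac
Dvl3: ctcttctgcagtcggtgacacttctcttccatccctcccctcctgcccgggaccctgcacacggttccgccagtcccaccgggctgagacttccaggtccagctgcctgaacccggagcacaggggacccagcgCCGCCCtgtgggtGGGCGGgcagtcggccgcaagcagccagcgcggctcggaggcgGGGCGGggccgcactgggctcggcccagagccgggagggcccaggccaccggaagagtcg
The Dvl1 window holds 5 GC boxes and 26 CpG dinucleotides at 71.2% G and C, and the Dvl3 window 3 GC boxes and 21 CpG at 72.8%. Dvl2 has 4 GC boxes, 13 CpG and 60.8% G and C. Overlapping matches were counted separately. Of all 32851 RefSeq windows of this length, 32.7% hold a GC box, and the medians are 6 CpG and 52.4% G and C. The core letters of TCF/LEF factors, CTTTGNN with each N an A or a T, on either strand, occur in 14.8% of all windows and are not in those of the 3 Dvl genes.

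Axin1, the scaffold around which the destruction complex assembles, had the largest difference among the 10 genes. Axin1 (ENSMUSG00000024182, mm9 chromosome 17, 26275630 to 26332756) stood at 23.95 FPKM in LacZ-positive against 43.0 in LacZ-negative cells, a ratio of 0.557 and a log2 difference of -0.82, or -0.65 after centring. A lower difference was found for 3.32% of the 9252 well-expressed genes. Axin1 stood at 35.1 FPKM in the cKO and 33.0 in the Het library, a difference of 0.087. This was near the median of well-expressed genes, at 0.020 after centring. Across the separately scaled tables, the LacZ-negative value is the highest of the 4 and the LacZ-positive value the lowest. No other gene is listed in the interval of Axin1.

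The inducible paralog Axin2, which is both a scaffold and a Wnt target gene, lay on the other side of 0 in both pairs. In the Ctnnb1 pair, however, Axin1 was close to the median of well-expressed genes. Axin2 stood at 2.12 FPKM in the cKO and 16.3 in the Het library. Its level was 19.0 FPKM in LacZ-positive against 9.10 in LacZ-negative cells, where the sort used its reporter and so fixed the direction. The share of Axin1 in the summed Axin level was 94.3% in the cKO, 66.9% in the Het, 55.8% in the LacZ-positive and 82.5% in the LacZ-negative library. The sum of Axin1 and Axin2 was 37.3 FPKM in the cKO and 49.4 in the Het library, and 42.9 in LacZ-positive against 52.1 in LacZ-negative cells. The total was thus on the lower side in LacZ-positive cells before centring, although Axin2 was higher there. The sum was not centred, and the median of well-expressed genes in that pair was itself -0.17. This comparison of Axin1 with Axin2 was chosen after the values were seen, Axin2 transcripts in the LacZ pair come from an intact and a reporter-bearing copy, and Axin2 shares its interval with 1 other gene.

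Apc, the tumour suppressor scaffold that carries β-catenin binding repeats, lay within 0.1 of 0 in both pairs before centring. Apc (ENSMUSG00000005871, mm9 chromosome 18, 34380577 to 34481843) stood at 11.5 FPKM in the cKO and 12.3 in the Het library, a log2 difference of -0.088 (-0.16 after centring), which was below the middle 50% of its span class. In the LacZ pair its level was 11.4 FPKM in LacZ-positive against 10.6 in LacZ-negative cells, a difference of 0.091 that became 0.26 after centring and 0.20 relative to genes of like level. Its paralog Apc2 stayed under 1 FPKM in all 4 libraries, so that Apc made up 94.3% to 96.4% of the summed level of both. The ratio of Axin1 to Apc was 3.06 in the cKO and 2.69 in the Het library, and 2.102 in LacZ-positive against 4.04 in LacZ-negative cells.

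**Figure D3:**
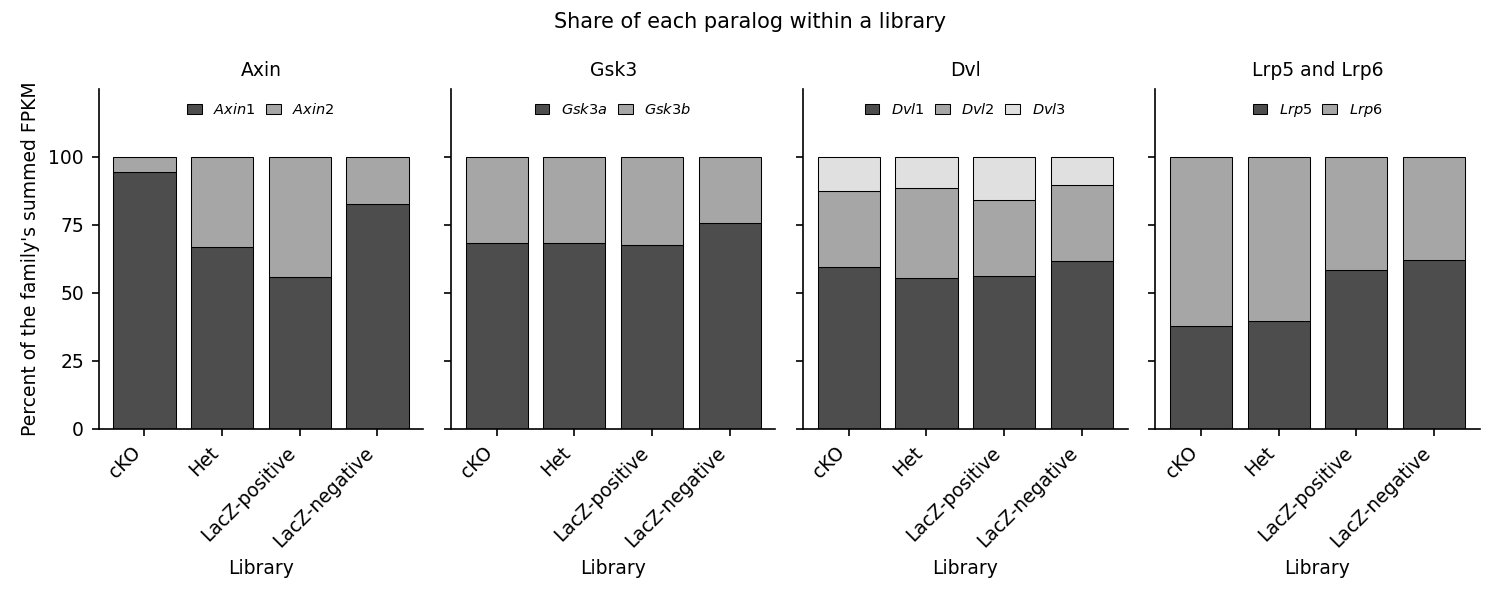
Percent of a family's summed FPKM held by each paralog in the 4 libraries, for Axin, Gsk3, Dvl and the Lrp co-receptors; bars add to 100 and a library is 1 bar. The Axin1 share runs from 55.8% to 94.3%, the Gsk3a share stands at 67.6% to 68.3% in all but the LacZ-negative library (75.8%), and the Lrp6 share is 62.1% and 60.3% in the cKO and Het libraries and 41.5% and 38.1% in the LacZ-positive and LacZ-negative ones.

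The kinases come in 2 steps: Csnk1a1, casein kinase 1α, places the priming phosphate on β-catenin, and the glycogen synthase kinases Gsk3a and Gsk3b extend it. Csnk1a1 (ENSMUSG00000024576, mm9 chromosome 18, 61714927 to 61749715) stood at 146 FPKM in the cKO and 138 in the Het library, a log2 difference of 0.078. Its level was 201 FPKM in LacZ-positive against 205 in LacZ-negative cells, a difference of -0.026 that became 0.14 after centring. Among the 6 casein kinase 1 genes, Csnk1a1 held 42.4% of the summed level in the cKO, 40.5% in the Het, 48.1% in the LacZ-positive and 50.03% in the LacZ-negative library, with Csnk1d next at 22.9% to 30.3%.

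Gsk3a (ENSMUSG00000057177, mm9 chromosome 7, 26013276 to 26022870) stood at 30.1 FPKM in the cKO and 27.5 in the Het library, a log2 difference of 0.13. Gsk3b (ENSMUSG00000022812, mm9 chromosome 16, 38089086 to 38246170) stood at 14.0 and 12.8 FPKM, a difference of 0.12, close to that of Gsk3a. In the LacZ pair they lay on opposite sides of 0. Gsk3a stood at 27.5 FPKM in LacZ-positive against 37.3 in LacZ-negative cells, a ratio of 0.736 and a difference of -0.43 (-0.26 after centring). Gsk3b stood at 13.2 and 11.9 FPKM, a ratio of 1.11 and a difference of 0.14 (0.31 after centring). Gsk3a made up 68.3% of the summed Gsk3 level in the cKO, 68.3% in the Het and 67.6% in the LacZ-positive library, and 75.8% in the LacZ-negative library. The LacZ-negative library stands apart from the other 3 in this share. The intervals of Gsk3a and Gsk3b differ in length (9.60 and 157 kb). Relative to their span classes the genes were at -0.13 and 0.18 in the LacZ pair. The part of length in this share was not tested.

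The same windows of the 2 kinase genes, which stood at like ratios in 3 libraries and not in the LacZ-negative one, are shown from RefSeq (GRCm38.p6, minus strand chr7:25237852-25238101 for Gsk3a and plus strand chr16:38088751-38089000 for Gsk3b), with GC boxes and TCF/LEF core letters in capitals.
Gsk3a: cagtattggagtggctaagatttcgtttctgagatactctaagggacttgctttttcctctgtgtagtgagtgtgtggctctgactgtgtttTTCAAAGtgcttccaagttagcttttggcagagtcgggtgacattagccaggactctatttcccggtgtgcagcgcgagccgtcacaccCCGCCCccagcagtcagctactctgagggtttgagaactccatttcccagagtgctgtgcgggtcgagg
Gsk3b: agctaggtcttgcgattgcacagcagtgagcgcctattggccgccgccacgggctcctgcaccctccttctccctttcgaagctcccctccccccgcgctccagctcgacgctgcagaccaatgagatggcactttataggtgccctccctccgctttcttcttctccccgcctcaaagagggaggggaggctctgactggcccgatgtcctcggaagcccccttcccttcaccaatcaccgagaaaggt
The Gsk3a window holds 1 GC box, as CCGCCC, and 1 match to the TCF/LEF letters, TTCAAAG on the strand shown, which begins 158 bases before the start. Its content of G and C is 52.0%, near the median of all windows, with 9 CpG. The Gsk3b window holds neither motif, with 62.0% G and C and 15 CpG. Matches are letters in a window, not shown to be binding sites, and the chromatin immunoprecipitation samples of the series were not analysed here.

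Over all genes of the LacZ pair, the difference went with the length of the gene's interval and with its level. Among well-expressed genes, the median difference was -0.34 for the 1067 genes that span at most 5 kb, -0.29 for the 965 of 5 to 10 kb, -0.23 for the 1593 of 10 to 20 kb, -0.14 for the 2617 of 20 to 50 kb, -0.060 for the 1549 of 50 to 100 kb, -0.047 for the 909 of 100 to 200 kb and -0.11 for the 552 beyond. The same medians lay between 0.05 and 0.12 in the Ctnnb1 pair. Relative to the median of its span class, Axin1 (57.1 kb) was at -0.76 in the LacZ pair and Lrp5 (102 kb) at -0.43. Lrp6 (120 kb) was at -0.22, Gsk3a (9.60 kb) at -0.13 and Dvl1 (15.96 kb) at -0.0053. Gsk3b (157 kb) was at 0.18 and Dvl3 (21.4 kb) at 0.59 in that pair. There 6 of 10 members were inside the middle 50% of their span class, Dvl3 was above it, and Axin1, Lrp5 and Lrp6 were below it. By level, the median went from -0.061 in the lowest of 6 classes of equal size to -0.30 in the highest, and relative to its level class Axin1 was at -0.58, Lrp5 at -0.31, Gsk3a at -0.18 and Dvl3 at 0.51. The differences of Axin1 and Dvl3 thus remained the lowest and the highest of the 10 genes under both kinds of centring. Beyond these values the part of length and level was not tested.

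**Figure D4:**
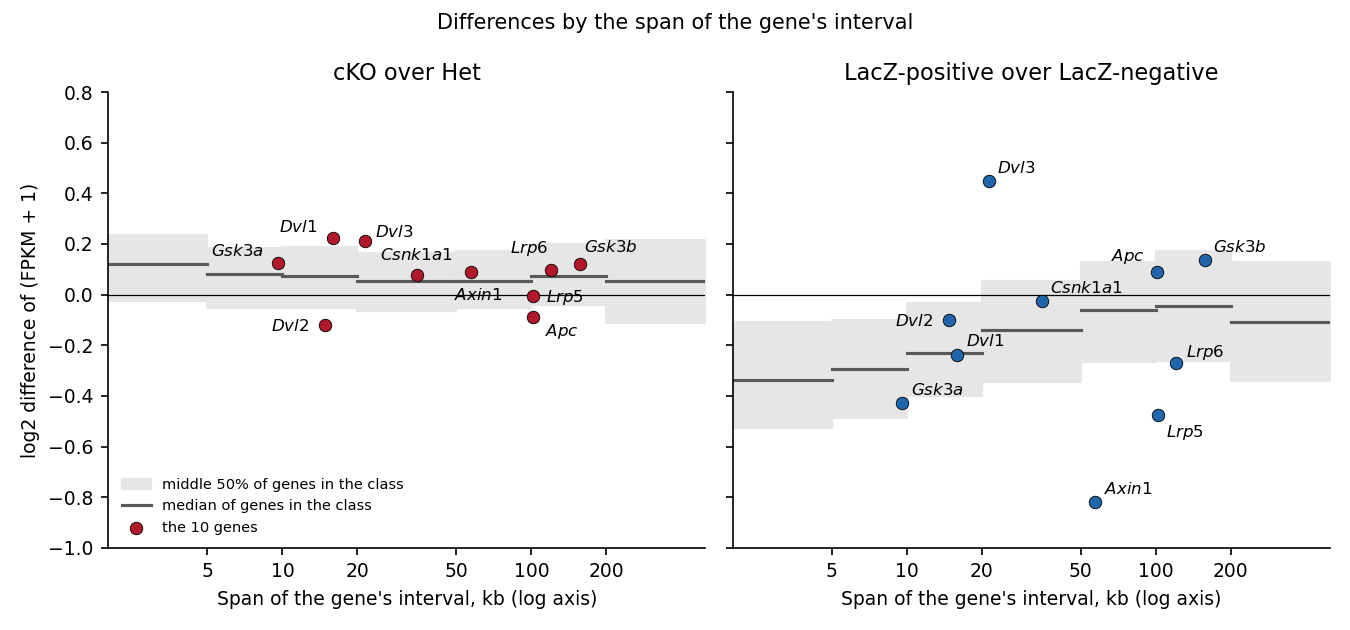
log2 difference of (FPKM + 1) against the span of the gene's interval in kb (log axis) for the 10 genes, cKO over Het at left and LacZ-positive over LacZ-negative at right; lines are medians and grey boxes the middle 50% of well-expressed genes, by span class. At right the class medians climb from -0.34 to -0.047 and stand at -0.11 in the class beyond 200 kb. Dvl1 lies nearest to the median of its class. Axin1, Lrp5 and Lrp6 lie below and Dvl3 above the box of their class, and the other members lie inside it.

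Of the 10 genes, 5 share their interval with another listed gene, from which reads can enter the value. Dvl2 lies with Acadvl, a gene of fatty acid oxidation that stood at 57.7 and 52.8 FPKM in the cKO and Het libraries and at 46.9 and 76.0 in the LacZ-positive and LacZ-negative libraries, above Dvl2 itself in each, and with Mir324, listed at 0. Gsk3a lies with 9130221H12Rik, at 7.44 and 7.86 FPKM in the cKO and Het libraries. That gene stood at 5.40 FPKM in LacZ-positive against 9.13 in LacZ-negative cells. The neighbours of Dvl1 (Tas1r3, at most 0.462 FPKM), Dvl3 (Gm16618, at most 0.407) and Gsk3b (SNORA17, at most 3.65) were low. Without the 5 genes that share an interval, the median over Apc, Axin1, Csnk1a1, Lrp5 and Lrp6 was 0.08 in the Ctnnb1 pair and -0.27 in the LacZ pair.

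Other genes of the pathway, a list of 46 by role, were read beside the 10; 45 are in the tables and Frat1 was not analysed here. In the Ctnnb1 pair 40 were measured. Of these, 27 lay above 0 and 13 below, where 64.7% of well-expressed genes lay above. The 2-fold line was passed by 1, Axin2, at -2.47. The share of 2.50% stands beside 4.09% for all genes, and the median of 0.10 beside 0.06. In the LacZ pair 38 were measured. Of these, 20 lay above 0 and 18 below, where 30.4% of well-expressed genes lay above. The line was passed by 0, beside 7.27% of all genes, and the median was 0.018 beside -0.13. After centring, Axin2 (1.15) and Lrp4 (1.16) lay past the line, beside 1028 of all 13283 genes. Lrp4 encodes a receptor of the same family as Lrp5 that can bind Wnt inhibitors.

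Of the 4 genes that control Axin stability, 3 lay above 0 and 1 below in the LacZ pair. Tnks and Tnks2 encode the tankyrases, which mark Axin proteins for ubiquitination. Tnks stood at 5.07 FPKM in LacZ-positive against 3.23 in LacZ-negative cells, a difference of 0.52, and Tnks2 at 33.8 and 23.9 FPKM, a difference of 0.48. Rnf146, the ubiquitin ligase that reads the tankyrase mark, stood at 23.6 and 29.1 FPKM, a difference of -0.29. Usp34 was at 0.019. After centring, Tnks was at 0.69, Tnks2 at 0.65, Usp34 at 0.19 and Rnf146 at -0.12. All 4 genes of this group, Usp34 included, lay between 0.097 and 0.23 in the Ctnnb1 pair. Of the 5 genes of the ligase that takes up phosphorylated β-catenin, 4 were on the lower side in LacZ-positive cells, where 30.4% of well-expressed genes lay above 0: Skp1a (-0.42), Rbx1 (-0.41), Cul1 (-0.37) and Btrc (-0.16). The exception, Fbxw11, was at 0.21, and Btrc was at 0.014 after centring. All 5 lay above 0 in the cKO library, as did 64.7% of well-expressed genes, between 0.030 (Rbx1, or -0.038 after centring) and 0.31 (Fbxw11).

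Among the other casein kinases 1, Csnk1e stood at 40.9 FPKM in LacZ-positive against 29.9 in LacZ-negative cells (0.44), and Csnk1g2, whose family phosphorylates the Lrp6 tail, at 43.9 and 59.8 (-0.44). Of the 9 subunits of PP2A, the phosphatase that removes phosphates within the complex, 7 lay above 0 in the Ctnnb1 pair and 3 in the LacZ pair. Among well-expressed genes, 64.7% and 30.4% did so. Ppp2r5b was lowest in the LacZ pair at -0.56. The median of the 9 there was -0.17, or -0.0050 after centring. The partners of Dishevelled were mostly low: 7 of 9 were measured in the Ctnnb1 pair and 5 in the LacZ pair. Dact2, of a family of Dishevelled-binding proteins, stood at 2.36 FPKM in the cKO and 0.901 in the Het library (0.82), and Nkd1, a Dishevelled-binding feedback inhibitor, at 1.49 and 2.78 (-0.60). Ccdc88c, which encodes the Dishevelled-binding protein Daple, stood at 7.40 FPKM in LacZ-positive against 14.2 in LacZ-negative cells, a difference of -0.86 that was the lowest of the list in that pair. Dact3 was next lowest, at 0.772 and 1.83 FPKM (-0.67). Kremen2, which encodes a receptor that removes Lrp6 from the surface together with Dkk1, stood at 2.99 and 1.58 FPKM in the cKO and Het libraries (0.63), the second highest of the list in that pair. Lrp4 stood at 11.2 FPKM in LacZ-positive against 5.16 in LacZ-negative cells (0.99), the highest of the list in that pair, followed by Axin2 (0.98). Rnf43 and Znrf3, ligases that clear Frizzled and Lrp6 from the surface, were at -0.30 and -0.30 in the Ctnnb1 pair and 0.45 and 0.35 in the LacZ pair. Skp1a lies in an interval of 17 listed genes, that of Ctnnb1 lists 4, those of Rnf146, Ccdc88c, Kremen2 and Rnf43 list 3 each and those of Axin2, Csnk1e, Btrc, Fbxw11 and Ppp2r5b 2 each, so that reads of neighbours can enter these values too.

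**Figure D5:**
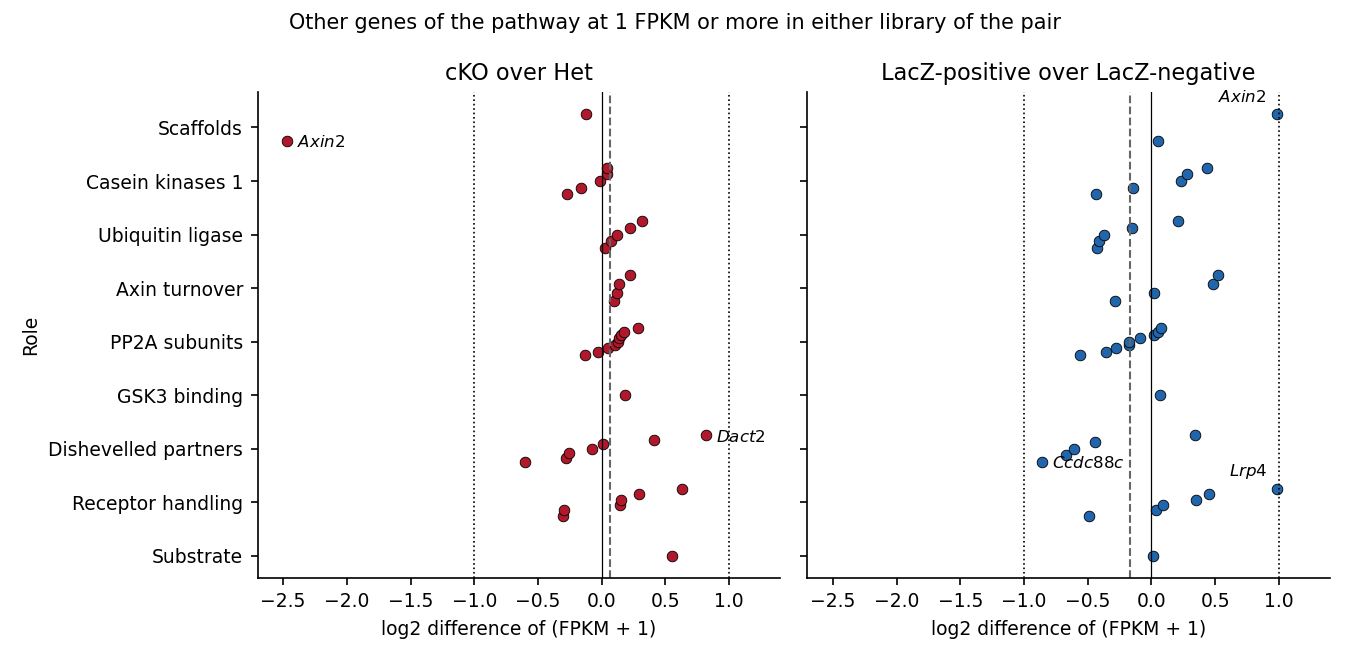
log2 difference of (FPKM + 1) of the other measured pathway genes, by role, cKO over Het at left (40 genes) and LacZ-positive over LacZ-negative at right (38 genes), 1 point a gene; dotted lines mark 2-fold and the dashed line the median of well-expressed genes. Axin2 at -2.47 is the single gene past a line; Axin2 (0.98) and Lrp4 (0.99) reach just short of it at right.

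In the authors' deposited table, the log2 fold change of cKO over Het, taken without a pseudocount, ran from -0.12 for Dvl2 to 0.24 for Dvl3 and 0.23 for Dvl1 among the 10 genes.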

How the data were processed

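The 4 RNA libraries were grouped from the sample titles; the 4 ChIP samples were not used here. The files hold FPKM values that the authors deposited in 2 gene tables, 1 per pair, and the table of the Ctnnb1 pair adds their log2 fold change of cKO over Het, per the file headers. The submitters' processing notes list the aligner TopHat2 2.0.4, also as TopHat, the assembler Cufflinks 2.1.1 and both mm9 and GRCm38, without saying what each was used for; how FPKM were scaled, and how multi-mapped reads and strand were treated, is not given there. Coordinates are those of the tables and were taken as mm9.

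The 25 symbols that a spreadsheet had turned into dates were restored from Ensembl identifiers, 1 of them to the form used in the second table, and rows of a symbol were summed (Python 3.11.15, pandas 2.3.3). Differences are log2 of (FPKM + 1), which understates changes of low genes; only genes reaching 1 FPKM in a library of the pair were counted. FPKM keep no read counts, so the absolute depth is unknown and no interval was computed. Among 1168 rows under 0.05 FPKM in both libraries of the Ctnnb1 pair, the log2 ratios gathered within 0.02 of 0.06 (202 rows) and of 1 above and below it (62 and 61 rows, against 4 and 6 midway), so 1 read was worth 1.04 times as much in the cKO as in the Het library. The LacZ pair showed no such steps (49 rows at the commonest ratio, 13 and 8 at 1 above and below).

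The counting steps were run on simulated pairs, a library beside a copy of itself with chosen genes raised or lowered and no noise. This checks the code only, not how the counts behave in data like these. The members and gene lists were chosen with earlier results of these data known. Named were all 10 members, Ctnnb1 and Axin2, and of the other pathway genes those past the 2-fold line and the 2 highest and 2 lowest of each pair; further pathway genes, and the Axin and casein kinase shares, were chosen after their values were seen. Ctnnb1 is itself on the pathway list. Alternatives were pseudocounts of 0.1 and 5, centring, upper-quartile scaling, other minimums, the highest row per symbol and the removal of small RNA names; centring by span or level class and leaving out shared intervals were added after the data were seen. With no spread between replicates, a value counted as moved at a shift over 0.1 (log2).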

Additional observations from a re-analysis of the deposited data

How the results depend on the processing

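Each group is 1 library, so no replicate could be left out. No paired analysis was possible because each group has 1 library and the labels give no replicate numbers. Under all 7 alternatives run on them, 0 of 10 members reached the 2-fold line in either pair. Axin1 in the LacZ pair ranged from -0.84 (pseudocount 0.1) to -0.58 (level class) and Dvl3 from 0.30 (pseudocount 5) to 0.62 (centring). Csnk1a1 and Dvl2 changed sign there with centring, upper-quartile scaling and span class, and by level class together with Dvl1; in the Ctnnb1 pair Csnk1a1 did so by level class. The members' median in the LacZ pair became 0.0022 with centring, -0.014 with upper-quartile scaling, 0.055 by span class, 0.027 by level class and -0.27 over the 5 members alone in their interval. For the 38 other pathway genes in that pair the median became 0.19 with centring and 0.15 with upper-quartile scaling. Of the 38, 2 (Axin2 and Lrp4) passed the line under either, beside 1028 of all 13283 and 996 of all 13291 genes. With pseudocount 0.1, 4 passed (also Cxxc5 and Dact3), beside 1443 of all 13283 genes. In the Ctnnb1 pair 2 of 40 passed with pseudocount 0.1 (Axin2 and Dact2), beside 784 of all 13014 genes. Over all genes, those past the line went from 532 to 303 with pseudocount 5 and to 225 when zeros and the names of small RNAs, clones and Gm or Rik models were left out in the Ctnnb1 pair, and from 966 to 460 and 585 in the LacZ pair. The highest row per symbol left the paralog shares as they were, since each of these genes has a single row. In the LacZ pair, centring moved the share of higher genes among those past the line from 64.2% to 78.2%, and upper-quartile scaling to 75.7%.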

Other observations

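The genes nearest to Axin1 by the 2 log2 differences were Gas1, Bbs2, Hspb8, Nudt14 and Coq10a, at Euclidean distances of 0.013 to 0.031, out of 7779 genes that reached 5 FPKM in all 4 libraries. Gas1, a surface protein of the hedgehog pathway, stood at 160 FPKM in the cKO and 150.1 in the Het library (0.089), and at 124 in LacZ-positive against 218 in LacZ-negative cells (-0.81). Nearest to Dvl1, whose difference in the Ctnnb1 pair was the largest with a pseudocount of 1 but not with 0.1, were Mrpl3, Ric8b, Adam9, Psmb7 and Ccdc90b, at distances of 0.011 to 0.014. Likeness over 2 differences of 4 libraries is a description of these libraries.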
